A study of Mus musculus with 20 samples.

Results

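The 8 genes described here encode proteins that shorten the life of messenger RNA or restrain cell division, and most are known as immediate feedback genes of inflammatory signaling. They were taken by symbol from the tables of 37681 genes: Zfp36, Zfp36l1, Zfp36l2, Zc3h12a, Rc3h1, Btg1, Btg2 and Btg3. All 8 were among the 15578 genes tested. The samples were livers of 10 male C57/B6J mice aged 12 weeks, collected 4 hours after an intraperitoneal injection of IL-1β at 20 µg/kg (5 mice, ILB_9577, ILB_9578, ILB_9579, ILB_9582 and ILB_9583) or of saline (5 mice, UNT_9574, UNT_9575, UNT_9576, UNT_9580 and UNT_9584). The RNA of each liver was sequenced on an Illumina HiSeq and on an Ion Torrent Proton, and reads of each platform were aligned with STAR, GSNAP or STAR followed by Bowtie2, which gave 6 tables of 10 libraries. The Illumina STAR table is described throughout and the other 5 serve as a check. A library held 10568530 to 12008799 reads assigned to genes if made for Illumina and 12199528 to 16439683 if made for Ion Torrent.

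The products of Zfp36 (tristetraprolin), Zfp36l1 and Zfp36l2 are zinc finger proteins that bind AU-rich elements in the 3′ untranslated region (UTR) of transcripts of cytokines and growth regulators, and recruit the CCR4-NOT deadenylase complex, which removes the poly(A) tail. Zc3h12a encodes Regnase-1, an endonuclease that cuts stem-loops in inflammatory transcripts, and Rc3h1 encodes Roquin-1, which binds related stem-loops and also recruits deadenylases. Btg1, Btg2 and Btg3 belong to the BTG/TOB family of antiproliferative proteins, which bind the deadenylases of CCR4-NOT. Btg2 is also a known target of p53. Some of these proteins act on their own transcripts. In the mm9 annotation the members lie apart, Zfp36l1 at chr12:81208747-81214000, Zfp36l2 at chr17:84583271-84587287, Zc3h12a at chr4:124795667-124805084, Rc3h1 at chr1:162836549-162905109, Btg1 at chr10:96079635-96085447 and Btg2 at chr1:135971747-135975697, and Zfp36 and Btg3 are placed below.

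The AU-rich nonamer TTATTTATT, which ZFP36 proteins are known to prefer, was searched on the sense strand of 3′ UTRs of at least 100 bases, 1 transcript per gene, from the GENCODE annotation of NCBIM37 (mm9). It occurred in 6.59% of 17686 UTRs. Of the 8 genes, Zfp36, Zfp36l1, Zfp36l2 and Rc3h1 each held 1 copy, while Zc3h12a, Btg1, Btg2 and Btg3 held 0. The 4 sites are shown because 3 of them lie in the transcripts of the ZFP36 family itself. They are written 5′ to 3′ with the nonamer in capitals.
Zfp36: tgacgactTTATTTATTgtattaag
Zfp36l1: ctgttggaTTATTTATTttagaaat
Zfp36l2: tatttaacTTATTTATTatcttgtg
Rc3h1: tttactcaTTATTTATTgagatgag
They lie on the minus strand at chr7:29161972-29161996 (Zfp36), chr12:81209156-81209180 (Zfp36l1) and chr17:84584256-84584280 (Zfp36l2), and on the plus strand at chr1:162900176-162900200 (Rc3h1). The Rc3h1 UTR has 7181 bases, and 29.1% of UTRs within 25% of its length also held the nonamer, against 4.53% of those near the 774 bases of the Zfp36 UTR. The shorter core ATTTA, which 63.6% of UTRs held, occurred 20 times in Rc3h1, 9 times in Zfp36l1, 5 times in Zfp36l2 and 3 times in Zfp36. Among genes that lacked the nonamer, it occurred 11 times in Btg1, 5 times in Btg2, 4 times in Btg3 and 3 times in Zc3h12a. Of UTRs of like length, 4.02% held as many copies as Zfp36l1 and 2.70% as many as Btg3, against 18.5 to 34.7% for the other members.

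Zc3h12a, Btg2 and Btg3 rose about 7 to 10-fold in the livers of IL-1β mice, Zfp36 rose 2.33-fold and Rc3h1 rose 1.43-fold. Zfp36l1, Zfp36l2 and Btg1 did not pass the test. Thus 5 of the 8 genes were higher and 0 were lower by edgeR's quasi-likelihood test with Benjamini-Hochberg adjustment over all tested genes, at an adjusted p of 0.05. For background, 22.7% of tested genes were called higher, 22.9% lower and 45.7% either way. The two-sided Mann-Whitney test used in the study called 4 of the 8, against 38.1% of tested genes. The groups did not overlap in 4 of the 8, against 33.6% of tested genes. At an unadjusted p of 0.05, edgeR still placed 0 members lower in this table, and DESeq2 and limma-voom also called 0 lower. With library totals alone as the scale, 4 members were higher and 2 were lower (Zfp36l1 and Btg1). That scale moved the median change of all tested genes to -0.10 (log2), and lowered the share of higher genes among all calls from 49.8% to 38.8%.

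**Figure D1:**
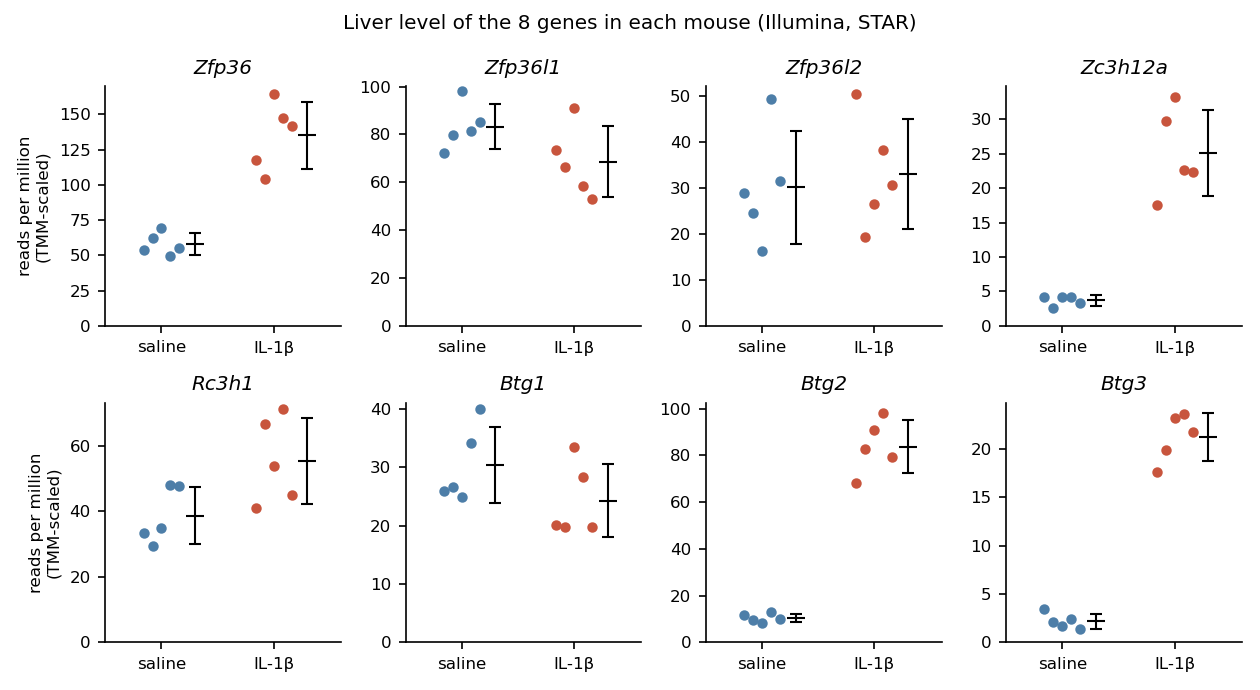
TMM-scaled CPM, counts per library scaled to a common depth (y axis, linear from 0) of the 8 genes in each mouse of the Illumina STAR table. Points are mice (5 per group), and bars give the mean ± SD. Zfp36, Zc3h12a, Btg2 and Btg3 separate the groups completely, Rc3h1 overlaps, and Zfp36l2 varies as much within a group as between groups.

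Zfp36 had the highest mean level per length of the 8 in both groups. Its read counts in the IL-1β mice were 1240, 1057, 1656, 1486 and 1409, in the order of the mice above, as in all such lists here. In the saline mice they were 644, 730, 808, 561 and 592. The lowest treated mouse lay above the highest control. The log2 fold change was 1.22 ± 0.13 (SE), with an edgeR adjusted p of 2.9e-06. The gene lies on the minus strand of chr7:29161803-29164274 and has 2 exons.

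Zfp36l1, the ubiquitous member of the family, gave 777, 672, 919, 591 and 528 reads with IL-1β and 868, 935, 1142, 916 and 919 with saline. By reads, ILB_9579 was the only treated animal that reached into the control range, and after TMM scaling ILB_9577 did too, at 73.7 CPM against 72.3 in UNT_9574. The log2 fold change was -0.28, with a 95% interval of -0.57 to 0.01 and an edgeR adjusted p of 0.107. Without ILB_9579 it was -0.40, with an edgeR adjusted p of 0.0145. Zfp36l1 thus did not pass with all mice on the TMM scale, and passed in 1 of the 10 fits that left out a mouse. With library totals as the scale it passed with all mice.

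Zfp36l2, which is best known from lymphocytes and blood progenitors, gave 533, 197, 267, 387 and 304 reads with IL-1β and 349, 288, 189, 557 and 340 with saline. The highest values came from treated ILB_9577 and control UNT_9580. The same mice were highest on the Ion Torrent platform, where the STAR table held 639 and 675 reads for them, and 219 to 555 for the other treated and 270 to 359 for the other control mice. The coefficient of variation between mice was 36.0% with IL-1β and 40.7% with saline, above the 17.8% and 13.4% of Zfp36. The log2 fold change was 0.13, with a 95% interval of -0.44 to 0.71 and an edgeR adjusted p of 0.738. This interval includes changes of more than 1.3-fold in either direction. Over the 10 mice, the deviations of Zfp36l2 from the group mean on the log2 scale correlated between platforms with an r of 0.906, which compares libraries made from the same RNA.

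Zc3h12a, which encodes the endonuclease Regnase-1, had the lowest mean level per length of the 8 in control liver in this table, and place 6 to 8 over the 6 tables. It gave 185, 301, 335, 228 and 222 reads with IL-1β, and 50, 30, 49, 47 and 36 with saline. Each treated mouse held more than 3 times the reads of the highest control. On the log2 scale the change was 2.76 ± 0.19 (SE), or 6.78-fold, with an edgeR adjusted p of 4.1e-08. Of the 15578 tested genes, 208 had an upward change at least as large, Zc3h12a included. Among the 9278 with a mean of at least 50 reads, 86 did.

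Rc3h1, the partner gene that encodes Roquin-1, moved less. It gave 432, 675, 541, 717 and 448 reads with IL-1β, and 402, 344, 408, 541 and 513 with saline. Treated mice ILB_9577 and ILB_9583 lay within the control range. Its log2 fold change was 0.52 ± 0.17 (SE), with an edgeR adjusted p of 0.0225, whereas the Mann-Whitney test gave an adjusted p of 0.205. The edgeR call was lost when any of mice UNT_9574, UNT_9575, UNT_9576, ILB_9578 or ILB_9582 was left out, with adjusted p-values of 0.0506 to 0.0786, and with library totals as the scale, where the adjusted p was 0.0579. It passed the edgeR test in all 6 tables, with log2 fold changes of 0.50 to 0.71, and the Mann-Whitney test in 1 of them.

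Btg2 had the smallest relative error of the responding genes. It gave 718, 838, 914, 990 and 789 reads with IL-1β, and 139, 111, 98, 147 and 108 with saline. No treated mouse came near a control. Fitted by edgeR, the log2 fold change was 2.99 ± 0.14 (SE), or 7.97-fold, with an edgeR adjusted p of 7.8e-10. Of the tested genes, 172 changed at least as much upward, Btg2 included. Btg1, its closest relative, gave 211, 201, 337, 286 and 196 reads with IL-1β, and 312, 313, 290, 383 and 430 with saline. By reads, only treated ILB_9579 lay within the control range. After TMM scaling ILB_9582 did too, at 28.4 CPM, where the controls spanned 24.9 to 40.0. The log2 fold change of Btg1 was -0.32, with a 95% interval of -0.69 to 0.05 and an edgeR adjusted p of 0.157, and without ILB_9579 it was -0.46, with an adjusted p of 0.0360.

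Btg3 gave 186, 202, 233, 238 and 216 reads with IL-1β, and 41, 25, 20, 27 and 15 with saline. The fitted log2 change was 3.25 ± 0.19 (SE), or 9.50-fold, with an edgeR adjusted p of 8.7e-09. This value depends on how reads were divided with a second gene. Gm7334, annotated as protein-coding on the plus strand of chr17:50837852-50839205, has a single exon, and Btg3, on the minus strand of chr16:78360105-78377437, has 5. Their transcripts aligned over 1354 bases with 0 mismatches and 1 gap opening (99.852% identity), and all 759 coding bases were identical. The stretch across the junction of Btg3 exons 3 and 4 is shown because a read there must be split by an intron to fit Btg3 and lies unbroken in Gm7334. The bases after the junction are in capitals, and both sequences are written in the direction of the transcript.
Btg3: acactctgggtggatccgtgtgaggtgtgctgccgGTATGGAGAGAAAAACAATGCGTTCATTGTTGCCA
Gm7334: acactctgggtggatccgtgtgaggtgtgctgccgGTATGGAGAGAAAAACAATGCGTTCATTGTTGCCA
The Btg3 bases lie within chr16:78365220-78369392, with the intron left out, and those of Gm7334 at chr17:50838289-50838358. The 70 bases are the same in both.

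The aligners divided these reads very differently in the same libraries. With STAR, 95.4% of the 1127 reads on the pair in IL-1β Illumina libraries went to Btg3 (exact 95% binomial interval 94.0 to 96.5%). With GSNAP, 15.5% of 2011 did (14.0 to 17.2%), and Gm7334 took the rest. With STAR followed by Bowtie2 the share was 89.0% of 1312 reads (87.2 to 90.7%). In the Ion Torrent libraries the shares were 14.1% of 1449 reads with GSNAP and 36.6% of 1315 with STAR followed by Bowtie2. Ion Torrent STAR kept only 26 reads on the pair over 5 treated mice and 1 over 5 controls, and Btg3 was below the limit of detection there (5 reads in 5 libraries). It held 2, 6, 3, 4 and 4 reads with IL-1β and 0 in every saline library, which gives an at least 7.08-fold higher level with 3 reads over the saline group as the limit. These intervals cover counting error only, and reads without molecular identifiers are not independent molecules.

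**Figure D2:**
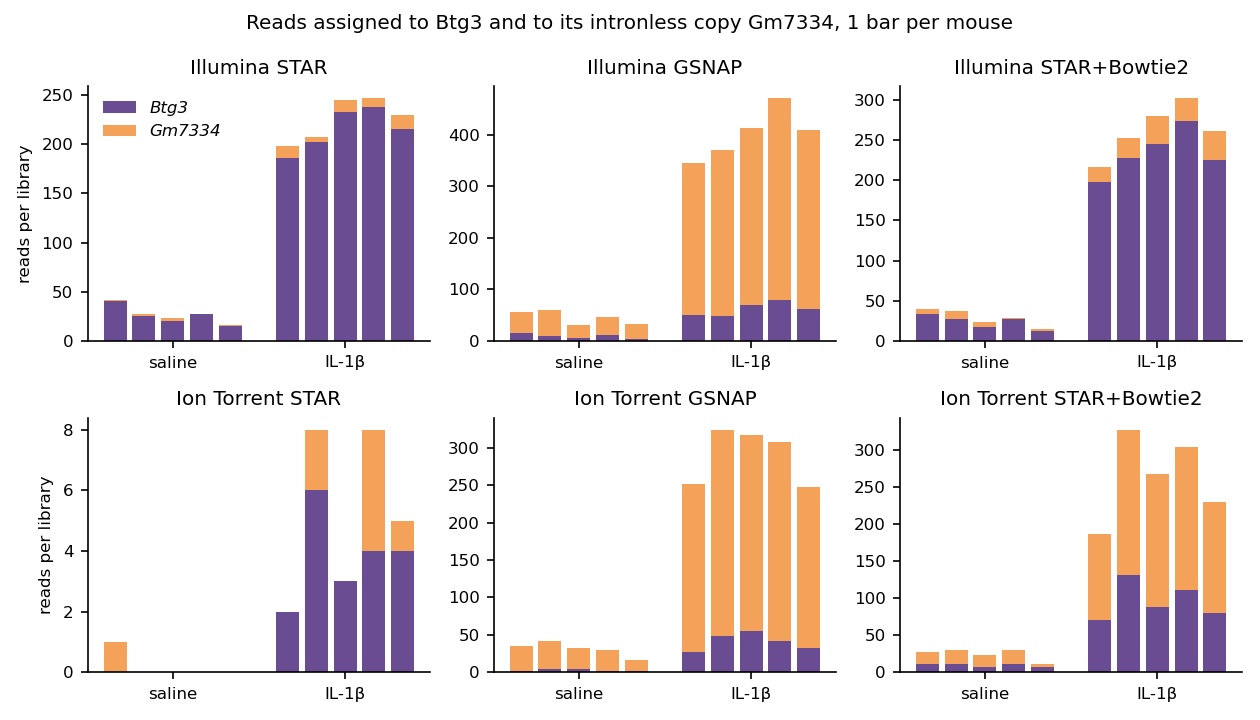
Reads per library (y axis, a separate linear scale in each panel) assigned to Btg3 (purple) and Gm7334 (orange) in the 6 tables, 1 stacked bar per mouse. The division between both genes changes with the aligner, while the stack is higher in every IL-1β mouse than in any saline mouse of the same table.

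The sum of both genes was steadier than either. In 5 tables the summed log2 fold change lay between 3.24 and 3.55, against 2.99 to 3.96 for Btg3 alone. In the Ion Torrent STAR table it was 4.17 ± 0.82 (SE) on those few reads. Which locus produced the transcripts was not tested, since their exonic letters agree over the aligned stretch but for 1 gap opening.

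The changes of the other members were close to each other in the 6 tables. In each table edgeR called 5 of the 8 higher and 0 lower. In Ion Torrent STAR the fifth of these was Btg3, which was below the limit of detection there, so that 4 of the 7 detected members were called. The background, called either way, was 47.5% of tested genes in Illumina GSNAP, 47.4% in Illumina STAR with Bowtie2, 42.1% in Ion Torrent STAR, 46.4% in Ion Torrent GSNAP and 46.7% in Ion Torrent STAR with Bowtie2. Zfp36 ranged from 1.02 to 1.22, Zc3h12a from 2.76 to 2.85 and Btg2 from 2.93 to 3.02 in log2 fold change. Zfp36l1 stayed between -0.30 and -0.22, Btg1 between -0.37 and -0.28, and Zfp36l2 between 0.13 and 0.35, and none of these passed in any table, with 1 member lower at an unadjusted p of 0.05 in 3 of the 6. Tests of the difference between platforms, with the mouse as a block, called 0 of the 8 with each aligner. The background shares were 0.00642% of tested genes with STAR, 0.0642% with GSNAP and 0.077% with STAR and Bowtie2. Unadjusted p-values under 0.05 were reached by 2 members with STAR, 1 with GSNAP and 0 with STAR and Bowtie2. With STAR these were Zfp36, whose change was 0.18 smaller (log2) on Ion Torrent (-0.18 ± 0.09 SE, edgeR adjusted p = 0.702), and Btg3, whose saline reads were 0 there. The Ion Torrent library of UNT_9584 stood apart from its group, and without that mouse 0 of the 8 were called as well.

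**Figure D3:**
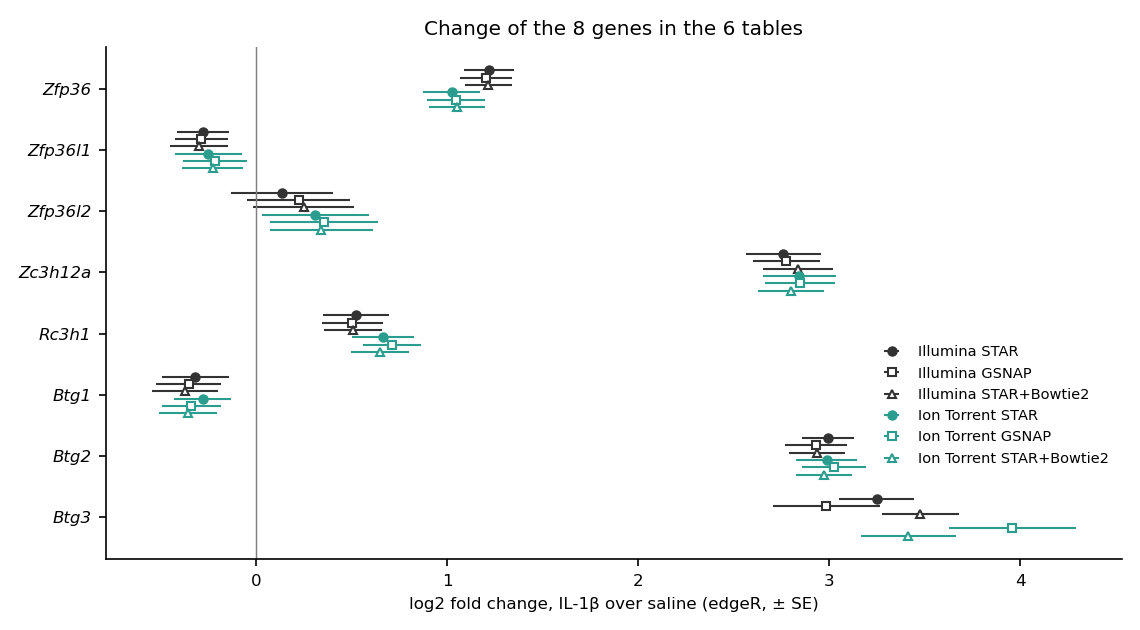
log2 fold change of IL-1β over saline (x axis) with its SE for the 8 genes in the 6 tables, with Illumina in black and Ion Torrent in green. Btg3 in the Ion Torrent STAR table is left out because all saline libraries hold 0 reads. Zfp36, Zc3h12a, Rc3h1 and Btg2 lie right of 0 in every table, and Btg3 in every table shown. Zfp36l2 does too, although it passed the test in none.

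Levels were compared between genes only as CPM (TMM-scaled) per kilobase of exon. In saline liver the order was Zfp36 (32.4 ± 4.3 SD, n = 5), Zfp36l1 (27.9 ± 3.2), Zfp36l2 (8.55 ± 3.48), Btg1 (6.05 ± 1.30), Btg2 (3.83 ± 0.67), Rc3h1 (3.42 ± 0.76), Btg3 (1.54 ± 0.54) and Zc3h12a (1.28 ± 0.25). The ranges over mice of Zfp36 and Zfp36l1 overlapped, as did those of Zfp36l2 and Btg1, of Btg2 and Rc3h1, and of Btg3 and Zc3h12a. After IL-1β the order was Zfp36 (75.4 ± 13.4), Btg2 (30.6 ± 4.2), Zfp36l1 (23.0 ± 5.0), Btg3 (14.7 ± 1.7), Zfp36l2 (9.38 ± 3.38), Zc3h12a (8.71 ± 2.18), Rc3h1 (4.91 ± 1.16) and Btg1 (4.85 ± 1.26). Here the ranges of Zfp36 and Btg2 did not overlap, nor did those of Zfp36l1 and Btg3, while all other neighbours overlapped. Btg2 thus moved from the fifth place to the second, which held in all 6 tables. The lower places differed between tables. Zc3h12a went from place 8 to 6 here but from 7 to 5 in Illumina GSNAP and from 6 to 4 in Ion Torrent STAR, and Btg1 from place 4 to 8 here but from 4 to 7 and from 4 to 6 in those tables. The level of Btg3 depended on the reads that Gm7334 took. After IL-1β it was 4.03 ± 0.89 CPM per kilobase in Illumina GSNAP and 2.03 ± 0.55 in Ion Torrent GSNAP, place 8 in both.

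The shares of related genes in their summed level restate the changes above. Zfp36 made up 40.2 to 50.8% of the per-length level of the 3 ZFP36 genes in saline mice and 62.7 to 74.9% in IL-1β mice. The summed level of these genes went from 68.8 ± 4.9 (SD) to 108 ± 16 CPM per kilobase. Btg2 made up 31.4 to 44.9% of the per-length level of Btg1 and Btg2 in saline mice and 83.2 to 88.4% in IL-1β mice. Zc3h12a rose from 21.6 to 32.8% of its sum with Rc3h1 to 55.5 to 70.8%. The ranges of all 3 shares did not overlap between groups. In the Ion Torrent STAR table Zc3h12a had shares of 49.3 to 56.9% and 80.0 to 86.4%, which differ from the Illumina shares but keep the order between groups.

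**Figure D4:**
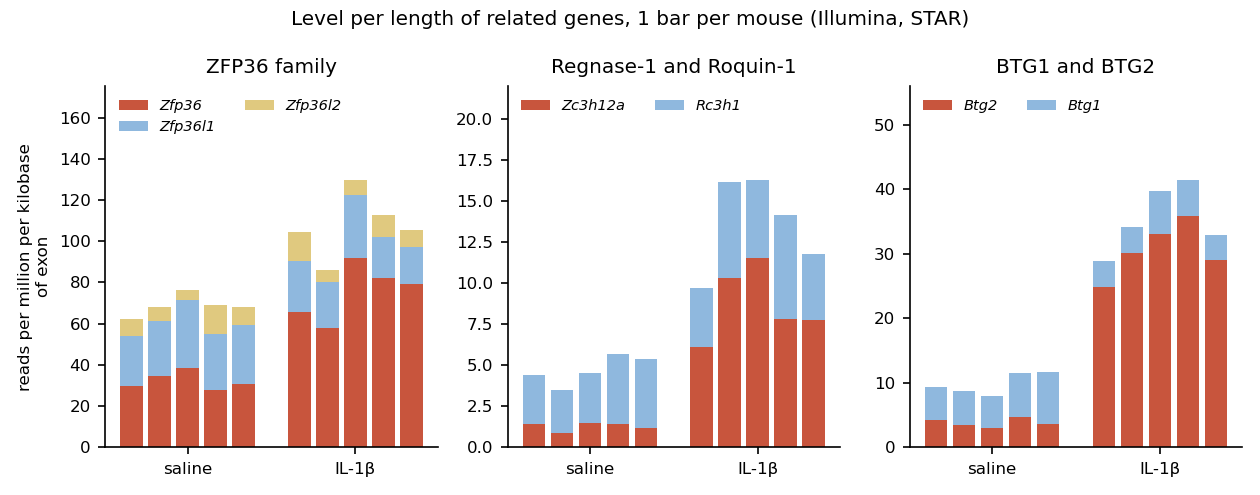
CPM per kilobase of exon (y axis, linear from 0, a separate scale in each panel) of related genes stacked in 1 bar per mouse of the Illumina STAR table. Zfp36, Zc3h12a and Btg2, in red, take a larger part of their stack in every IL-1β mouse than in any saline mouse.

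Promoters were compared over the 250 bases before the annotated start, on both strands, for 22367 protein-coding genes of NCBIM37. The loose NF-κB-like pattern GGGNNNNNCC was found in 5 of the 8, against 49.1% of all promoters and 57.7% of those of tested genes, which is near the background. The cAMP response element TGACGTCA was found in Btg2 alone among the 8, 201 bases before its start, and in 1.91% of all promoters and 2.37% of those of tested genes. The serum response factor motif known as the CArG box occurred in Zfp36 alone, 31 bases before its start, and in 1.34% of all promoters and 1.10% of those of tested genes. The AP-1 pattern TGANTCA was found in Zfp36l1 and Rc3h1, and in 1343 of the 22367 promoters and 4.57% of those of tested genes. Of the genes with the AP-1 pattern, Rc3h1 passed the edgeR test and Zfp36l1 did not. The promoters of Zfp36 and Btg2 are shown because both genes responded and hold the rarest of these motifs. Capitals mark the CArG box and the cAMP response element, respectively.
Zfp36: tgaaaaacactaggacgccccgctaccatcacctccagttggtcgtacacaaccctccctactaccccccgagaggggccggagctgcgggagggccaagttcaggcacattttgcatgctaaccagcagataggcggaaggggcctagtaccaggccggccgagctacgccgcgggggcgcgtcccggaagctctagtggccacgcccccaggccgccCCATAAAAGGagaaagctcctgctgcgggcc
Btg2: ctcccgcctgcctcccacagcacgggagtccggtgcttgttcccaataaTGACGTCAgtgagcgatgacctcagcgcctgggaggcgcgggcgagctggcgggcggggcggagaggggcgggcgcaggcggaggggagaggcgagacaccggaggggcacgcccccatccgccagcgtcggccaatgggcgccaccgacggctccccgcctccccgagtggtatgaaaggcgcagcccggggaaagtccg
They lie on the minus strand at chr7:29164275-29164524 and chr1:135975698-135975947. A match of letters is a description of the window, and no binding was measured here.

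Other copies of these genes exist in the reference. The Zfp36l1 transcript matches the X-linked pseudogene Gm14556 at 94.0% identity, and Btg1 matches Gm14519 at 98.0% over 1307 of its 5010 bases. These pseudogenes held at most 23 and 12 reads in any library of the 6 tables. The antisense gene Gm17591 overlaps Zfp36l1 and held at most 3 reads. For Zfp36l2, 881 bases at the end of its UTR match a stretch of the Cpeb1 locus at 99.8%, so that reads there are uncertain.

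The machinery these proteins recruit was described with lists of genes in the Illumina STAR table. Of 17 genes of CCR4-NOT and other deadenylases, 5 rose and 3 fell, with a median log2 fold change of 0.14 against 0 over all tested genes. These 8 are 47.1% of the list, near the 45.7% of all tested genes. Cnot3, a subunit of CCR4-NOT, rose 1.84-fold, while the catalytic subunits Cnot8 and Cnot6l fell by 0.85 and 0.51 on the log2 scale. Pabpc4, a poly(A)-binding protein, rose 1.66-fold. Of 19 decapping and 5′-3′ decay genes, 8 rose and 2 fell (42.1% and 10.5%, against 22.7% and 22.9% of all tested genes). Edc4, a scaffold of decapping, rose 1.85-fold, and Edc3 fell by 0.51 on the log2 scale. Of 16 exosome and 3′-5′ decay genes, 8 rose and 0 fell, with a median of 0.44. Skiv2l, a helicase that feeds the exosome, rose 2.80-fold and Dis3, a nuclease of the exosome, 2.29-fold. With library totals as the scale, 5 decapping genes rose and 2 fell, and 8 exosome genes rose and 1 fell.

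Among 12 other AU-rich element binders, 7 rose and 0 fell (58.3% and 0%, against 22.7% and 22.9% of all tested genes). By library totals, 6 rose and 1 fell. Arid5a, which is known to protect inflammatory transcripts from Regnase-1, rose 9.02-fold, from 9 to 81 reads in saline mice to 182 to 342 with IL-1β. Khsrp, a decay factor, rose 1.99-fold. The kinase p38 and its partner MK2 phosphorylate and restrain tristetraprolin, and of 10 genes of this axis 4 rose and 1 fell. Mapkapk2, which encodes MK2, rose 2.31-fold, and Dusp1, the phosphatase that switches p38 off, rose 2.203-fold. The Dusp1 groups overlapped, with 256 to 788 reads with IL-1β and 154 to 390 with saline. Map2k6, a kinase upstream of p38, fell by 3.63 on the log2 scale, from 68 to 122 reads down to 3 to 11. Of 5 tested paralogs of the 8, Tob2 (1.65-fold) and Rc3h2 (1.49-fold) rose. Of these 5, 40.0% were higher and 20.0% lower, against 22.7% and 22.9% of all tested genes. Zc3h12d fell by 1.86 on the log2 scale, and is named because it was the single paralog that fell.

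Transcripts known as targets of these proteins moved in both directions. Of 23 listed ZFP36 targets, 12 were tested, of which 4 rose and 1 fell (41.7% called, against 45.7% of all tested genes). Tnf and Il6, the classical targets, held at most 5 and 3 reads in any library of this table and were not tested. The chemokine gene Ccl2 rose 20.6-fold, from 1 to 6 reads in saline mice to 33 to 124 with IL-1β. Cxcl1 rose 6.15-fold, from 55 to 249 reads to 142 to 1763, so that its groups overlapped. Vegfa fell by 0.32 on the log2 scale. Of 18 listed targets of Regnase-1 or Roquin-1, 10 were tested, of which 5 rose and 2 fell (70.0% called, against 45.7% of all tested genes). However, transcripts near 0 in saline mice were tested only through the IL-1β group. Lcn2, an iron-scavenging acute phase gene, rose from 31 to 87 reads to 40160 to 50420. Il1rn, which encodes the IL-1 receptor antagonist, rose 61.2-fold. Cxcl1 is in both lists. Tfrc, the transferrin receptor, fell by 1.05 on the log2 scale, and Icos, named after its values were seen, was the other target that fell. Transcript stability was not measured, so that levels of these targets cannot be assigned to decay.

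Of 20 BTG partners and cell cycle genes, 6 rose and 3 fell, with a median of -0.01. These 9 are 45.0% of the list, near the 45.7% of all tested genes, and by library totals 4 rose and 4 fell. Cdkn1a, the cell cycle inhibitor p21, rose 77.3-fold, from 11 to 16 reads to 780 to 1119. Prmt1, the arginine methyltransferase that binds BTG proteins, rose 2.33-fold, and Ccne1, cyclin E1, 2.52-fold. E2f1 and Rb1, regulators of entry into S phase, fell by 1.18 and 0.60 on the log2 scale.

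**Figure D5:**
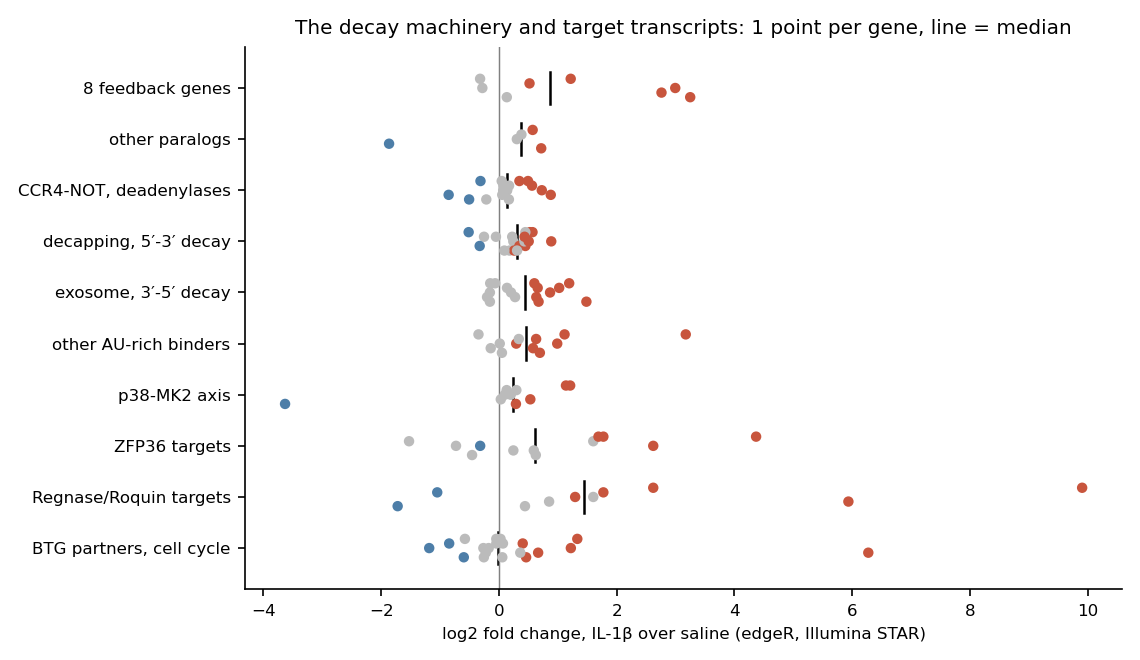
log2 fold change of IL-1β over saline (x axis) for each tested gene of 10 lists in the Illumina STAR table. Red and blue points passed the edgeR test upward and downward, grey points did not, and black lines are medians. Deadenylases lie within 1 of 0, while Zc3h12a, Btg2 and Btg3 lie near 3.

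Markers of cell types were counted with the same test. The summed level of the neutrophil markers went from 2.04 to 6.16 CPM in saline mice to 49.8 to 109 in IL-1β mice. Of the 10 listed, 6 were tested, and those with few saline reads could be tested only through the IL-1β group, so that their calls are not counted. Csf3r, the marker with the most saline reads, gave 75 to 121 reads with IL-1β and 15 to 39 with saline. Ly6g, Camp, Mpo and Ngp were at 0 in every saline library, and Elane was at 0 in every IL-1β library. Kupffer cell markers summed to 133 to 232 CPM in saline mice and 73.9 to 172 in IL-1β mice, with 1 of 8 higher and 3 lower. For background, 22.7% of all tested genes were higher and 22.9% lower. Of hepatocyte markers 1 of 8 was higher and 5 were lower, and of lymphocyte markers 0 of 5 were higher and 2 lower. The lymphocyte markers summed to only 2.67 to 4.50 CPM in saline mice and 1.01 to 2.48 in IL-1β mice. Endothelial markers were higher for 2 of 7 and lower for 2, stellate markers 1 of 7 and 3, and cholangiocyte markers 2 of 5 and 0. The part of these cells in the levels of the 8 genes was not tested. In whole liver, fewer cells of a type and less RNA per cell cannot be told apart.

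For Zfp36, Zc3h12a and Btg2, the genes of most similar pattern were named by Pearson correlation of log2 CPM over the 10 Illumina STAR libraries, among genes with a mean of at least 50 reads. They were Srrd, Nolc1 and Snx17 for Zfp36 (r of 0.982 to 0.994), Cd14, Tacc2 and Adcy1 for Zc3h12a (0.990 to 0.992), and Steap4, Serpina3f and 4933426M11Rik for Btg2 (0.995 to 0.998). Any gene that separates both groups strongly reaches a high r over these libraries.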

How the data were processed

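Liver RNA of 10 mice was sequenced on both platforms. The deposited values are count values, whole numbers per gene. The authors aligned reads to mm9 with STAR 2.5.1b, GSNAP, or STAR followed by Bowtie2 2.2.9, and used PORT to drop ribosomal and mitochondrial reads, assign reads to Ensembl genes and re-sample the libraries of a table to a common depth, which lowers the precision of deeper libraries. Whether Illumina counts are read pairs is not given in the sources used here. Levels were never tested across tables.

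A gene was tested if 5 or more libraries of any table held 5 or more of its reads, with edgeR 4.0.16 (TMM, quasi-likelihood). SEs are the log2 fold change divided by the square root of F. Alternatives were the Mann-Whitney test, DESeq2 1.42.0, limma-voom (limma 3.58.1), other scalings and filters, the other tables and leaving out each mouse. Summing Btg3 with Gm7334, and Ion Torrent STAR without UNT_9584, were added after seeing the data. The platform test used the mouse as a block, because both libraries came from the same animal. Deviations from the group mean correlated between platforms at 0.488 to 0.699 for 9 mice and 0.166 to 0.238 for UNT_9584. Fits were tested on simulated data.

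The 8 genes and all lists were chosen with earlier results of these data known. Named list genes are up to 3 per list and direction with the largest change among those passing the test with a mean of at least 20 reads, of which some are given. Zc3h12d and Icos had a mean under 20 reads and were named after their values were seen. Sequences come from NCBIM37 and its GENCODE annotation, and copies were found with BLAST+ 2.17.0 (alignments of at least 300 bases and 90% identity). P-values measure the spread between 5 mice per group.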

Additional observations from a re-analysis of the deposited data

How the results depend on the processing

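The count of higher members was 5 and ranged from 4 to 5 when each mouse was left out, and the count of lower members from 0 to 2. By library totals 2 members were lower: Zfp36l1 at -0.41 (edgeR adjusted p = 0.0238) and Btg1 at -0.44 (0.0395). Zfp36l2 turned negative by the ratio of Mann-Whitney means (-0.030), and ranged from -0.070 to 0.39 when each mouse was left out (negative without ILB_9577 and UNT_9576), and passed no test. Rc3h1 lost its call by the Mann-Whitney test (log2 ratio of means 0.35), by library totals (log2 fold change 0.40) and without 5 of the mice in turn. Under all alternatives run, Zfp36, Zc3h12a, Btg2 and Btg3 kept direction and call. With the replicate block removed, the platform test still called 0 members, with 1 at an unadjusted p under 0.05, and without UNT_9584 also 0, as did DESeq2 with the block (0 at an unadjusted p under 0.05). Of 118 tested pathway list genes, 47 rose and 13 fell (39.8% and 11.02%, against 22.7% and 22.9% of all tested genes), with 33 to 49 and 10 to 17 under the alternatives. These lists were chosen with earlier results known. They also hold target transcripts near 0 in saline mice, which were tested only through the IL-1β group. The difference in shares is therefore no test of the pathway. In Ion Torrent STAR, depth on the Btg3 pair limits its fold to a bound. Lengths of the longest transcript moved no level beyond 1 SD.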
